A study of Mus musculus with 9 samples.

Results

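Rab GTPases are small proteins that sit on the membranes of particular organelles and steer vesicles between them. The Rab genes were taken as every gene whose listed name is Rab, a number and at most 1 lower-case letter, which found 57 of 39179 genes. The rule used names and no measured value. Rab7l1, an older name of Rab29, did not match and was not counted. RNA was sequenced from DC of the spleen of C57BL/6J mice at steady state, with 3 libraries each of cDC1, cDC2 and pDC. No group carried a transgene, a deleted gene or a stimulus. Each library came from the pooled spleens of 15 to 17 mice, so the p-values below measure the spread between pools and not between animals. The cDC1 were sorted as CD11c-high, CD317-low, CD8+ and CD11b- cells, the cDC2 as CD11c-high, CD317-low, CD8- and CD11b+ cells, and the pDC as CD11c-intermediate, CD317-high and CD11b- cells, after depletion of cells that carry lineage antigens of T cells, B cells, erythroid cells and granulocytes.

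A Rab protein switches between a GTP-bound form on a membrane, where it recruits effectors such as motors, tethers and coat adaptors, and a GDP-bound form that a chaperone holds in the cytosol. Guanine nucleotide exchange factors turn it on and GTPase-activating proteins turn it off, so the pair of them sets where on the membrane a Rab works. In DC, Rab proteins are known for sorting ingested antigen between early endosomes, recycling endosomes and lysosomes, for moving newly made MHC molecules and cytokines through the Golgi, and for the release of secretory granules. The 57 genes were assigned to 7 steps by the textbook site of the protein. These were the early secretory pathway of ER and Golgi (14 genes), exocytic carriers to the plasma membrane (6), endocytosis and early endosomes (8), recycling endosomes (9), late endosomes, lysosomes and autophagosomes (7), regulated secretion and lysosome-related organelles (11), and cilium and other or unsettled steps (2). Many Rab proteins work at more than 1 of these places, so the assignment is an ordering of the text and not a measurement.

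The deposited values were counts of reads per gene. The 9 libraries held between 15806597 and 32453789 counts on genes, and 3 counts in 1 library corresponded to 0.0924 to 0.190 CPM (counts scaled to a common library total), a limit that covers counting error only. Levels are given as CPM after scaling by the trimmed mean of M-values (TMM), or, where genes are compared with each other, as RPKM, which is the same CPM divided by the kilobases of exon in the gene. Fold changes are from edgeR's quasi-likelihood test in 1 fit of the 9 libraries, with p-values adjusted by the Benjamini-Hochberg method over the 13819 genes that had enough counts, and a gene is called where the adjusted p is under 0.05. Each list of subset markers summed highest in its own subset, by a wide margin for the 6 pDC markers (11200 to 12200 CPM in pDC and at most 216 elsewhere) and by a smaller one over pDC for the other lists. The cDC1 list summed to 5520 to 6330 CPM in cDC1 and 4640 to 5200 in pDC, and the cDC2 list to 1460 to 1580 CPM in cDC2 and 1110 to 1250 in pDC. Cd8a, Itgam (CD11b) and Bst2 (CD317) of these lists encode antigens that the gates used, so the sort fixed part of these orders. Cd8a averaged 1430 CPM in cDC1 and 337 in pDC, a wider gap than that of the whole cDC1 list. The rest of that list thus summed higher in pDC than in cDC1. Irf8 of the cDC1 list was higher in pDC (4240 ± 274 CPM, SD, n = 3) than in cDC1 (2560 ± 221). Clec10a of the cDC2 list was at 582 ± 73.1 CPM in pDC and 18.3 ± 4.61 in cDC2, and Cd8a and Clec9a of the cDC1 list averaged 337 and 251 CPM in pDC. Xcr1, a receptor that marks cDC1, was at 936 ± 9.34 CPM (SD, n = 3) in cDC1 and 4.64 ± 3.86 in pDC, and Clec4a4, which marks cDC2, was at 162 ± 21.9 CPM in cDC2 and 1.24 ± 0.695 in pDC. Of the lists for 10 other cell types, the macrophage list (7 genes) summed to 90.3 to 152 CPM over the cDC1 libraries, 429 to 588 in cDC2, where Emr1 made up most of it, and 24.9 to 143 in pDC. The NK list (6 genes) stood at 9.71 to 30.5, 22.8 to 89.1 and 10.6 to 43 CPM, with the highest value of each subset in replicate 3. The T cell list (Cd4 above all), the plasma cell list (Xbp1 and Igj, the listed name of Jchain) and the monocyte list (Ly6c2) were highest in pDC, at up to 1460, 877 and 3130 CPM. The B cell list reached 95.2, 34.5 and 337 CPM in the 3 subsets, the erythroid list at most 64.4 CPM in any library, the neutrophil list 49.6, the platelet list 3.18 and the basophil or mast cell list 2.55. The part of any of these cells in the results was not tested. Fewer cells that express a gene and less of its RNA per cell cannot be told apart in such bulk samples.

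The Rab genes together took a larger share of the counts in cDC1 than in the other subsets. Their counts were 0.500% ± 0.0195 of all counts on genes for cDC1 (SD, n = 3), 0.380% ± 0.0129 for cDC2 and 0.325% ± 0.0147 for pDC. Summed RPKM over the 57 genes was 1460 ± 96.7, 1020 ± 43.9 and 921 ± 58.8 in cDC1, cDC2 and pDC. Rab43 alone made up 17.8% ± 0.55 of the summed RPKM in cDC1, 9.02% ± 0.0922 in cDC2 and 2.57% ± 0.30 in pDC. Without Rab43, the summed CPM of the others was still 3810 ± 253 in cDC1, against 3174 ± 140 in cDC2 and 3070 ± 198 in pDC. Of these sums, Rab32 alone held 411 ± 52.9, 110 ± 10.9 and 14.5 ± 4.72 CPM, so much of the remaining gap lay in that gene.

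Largely the same abundant genes headed the list in each subset, in another order. In cDC1 the highest levels per kilobase were those of Rab43 (259.5 ± 9.04 RPKM), Rab32 (176 ± 22.6), Rab7 (158 ± 3.83), Rab5c (114 ± 10.1) and Rab1b (99.7 ± 12.2). Cells of the cDC2 subset had Rab5c (125 ± 6.48 RPKM), Rab7 (115 ± 1.91), Rab43 (92.5 ± 4.59), Rab8a (79.7 ± 6.04) and Rab1b (74.9 ± 2.83) at the top. In pDC they were Rab7 (115 ± 8.07 RPKM), Rab5c (95.0 ± 2.46), Rab1b (77.7 ± 2.87), Rab10 (69.0 ± 12.01) and Rab33b (60.9 ± 5.69). Rab7, Rab5c and Rab1b, which act at late endosomes, at early endosomes and between ER and Golgi, were thus among the 5 highest in every subset, while Rab43 and Rab32 left that group in pDC and Rab33b entered it. The ranges of Rab5c and Rab7 did not overlap in cDC2, and those of Rab10 and Rab33b overlapped in pDC. At least 1 RPKM was reached by 40 of the 57 genes in cDC1, 39 in cDC2 and 35 in pDC, and at least 10 RPKM by 22, 22 and 24.

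**Figure D1:**
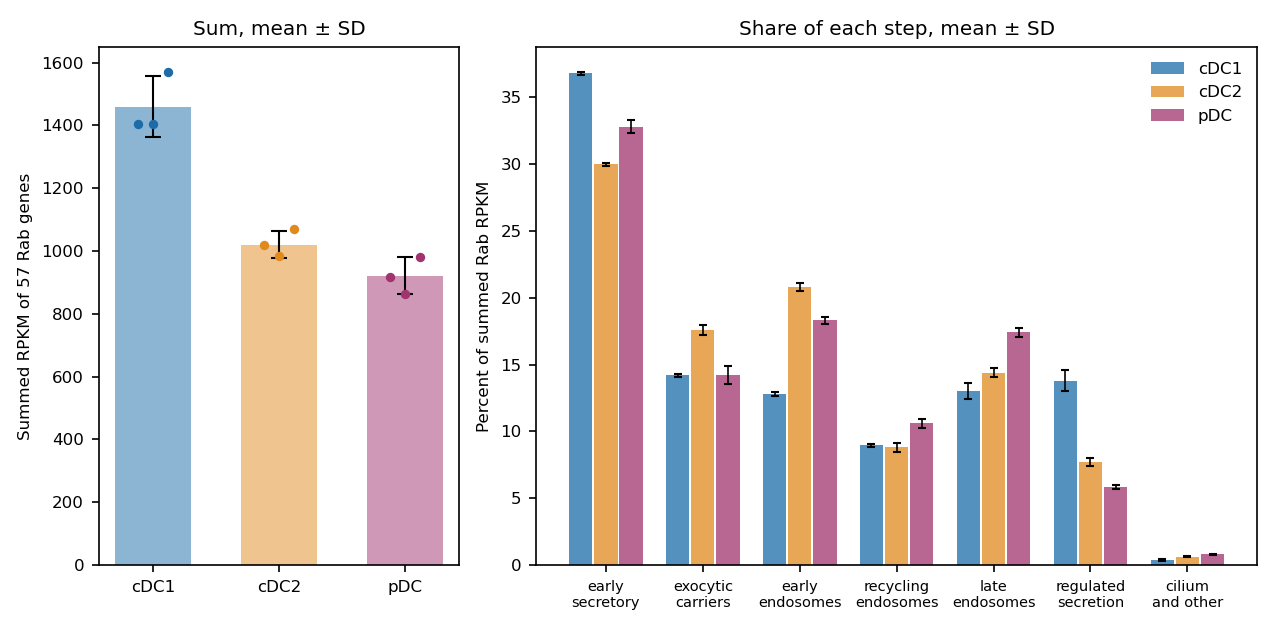
The left panel plots the summed RPKM of the 57 Rab genes in each subset (bars are means, error bars the SD, points the 3 libraries). The right panel plots the percent of that sum held by the Rab genes of each trafficking step (bars are means, error bars the SD, n = 3). In cDC1, the early secretory (36.8%) and regulated secretion (13.8%) steps held more of the sum than in the other subsets, and in cDC2 the early endosomes (20.8%) did, but without Rab43 and without Rab32 the first 2 shares were highest in pDC (31.1% and 5.21%).

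By step, Rab genes of the early secretory pathway held 36.8% ± 0.118 of the Rab RPKM for cDC1 (SD, n = 3), 30.0% ± 0.114 for cDC2 and 32.8% ± 0.509 for pDC. The share of early endosomal Rab genes was 12.8% ± 0.155, 20.8% ± 0.282 and 18.3% ± 0.235 in cDC1, cDC2 and pDC. That of regulated secretion and lysosome-related organelles was highest in cDC1 instead of lowest, at 13.8% ± 0.815, 7.72% ± 0.324 and 5.84% ± 0.124. The late endosomal share was 13% ± 0.602, 14.4% ± 0.331 and 17.4% ± 0.365 in cDC1, cDC2 and pDC, and the recycling share 8.95% ± 0.103, 8.80% ± 0.315 and 10.6% ± 0.314. Exocytic carriers held 14.2% ± 0.104, 17.6% ± 0.362 and 14.2% ± 0.685. For the first 4 of these steps the libraries of the 3 subsets did not overlap. The order of 2 steps turned on 1 gene each. With Rab43 left out, the early secretory genes held 23.1% ± 0.583, 23.1% ± 0.196 and 31.1% ± 0.733 of the rest for cDC1, cDC2 and pDC. With Rab32 left out, regulated secretion held 2.07% ± 0.175, 3.30% ± 0.0998 and 5.21% ± 0.201, so that both were then highest in pDC. These shares add up to a fixed total, so a fall of 1 abundant gene raises all the others, and they were not tested.

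Of the 57 Rab genes, 46 had enough counts for the test. Between pDC and cDC1, 10 of the 46 (21.7%) were higher in pDC and 19 (41.3%) lower, where 24.3% of all genes tested were higher and 24.4% lower. For pDC against cDC2, 10 were higher (21.7%) and 13 lower (28.3%), beside 22.5% and 23.3% of all genes. Comparing cDC2 with cDC1, 6 were higher (13%) and 13 lower (28.3%), beside 12.7% and 11.7%. The shares that rose were therefore near those of all genes. Above them were the shares lower in pDC than in cDC1 and lower in cDC2 than in cDC1. The share lower in pDC than in cDC2 was above by less (28.3% beside 23.3%). Any difference among the 3 subsets was called for 31 of 46 Rab genes (67.4%) and for 56.0% of all genes. Counts were higher for Rab genes than for many others, so the same shares were taken over genes with a mean of at least 100 counts: 15 of 37 such Rab genes (40.5%) were lower in pDC than in cDC1, beside 27.4% of 10482 genes, and 12 (32.4%) were lower in cDC2 than in cDC1, beside 13.8%. No test of these shares was run. The median log2 fold change of the 46 was -0.20 comparing pDC with cDC1, 0.02 with cDC2, and -0.16 comparing cDC2 with cDC1, beside 0.02, -0.01 and 0.03 over all genes tested. The 3 comparisons share libraries and are not independent of each other.

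**Figure D2:**
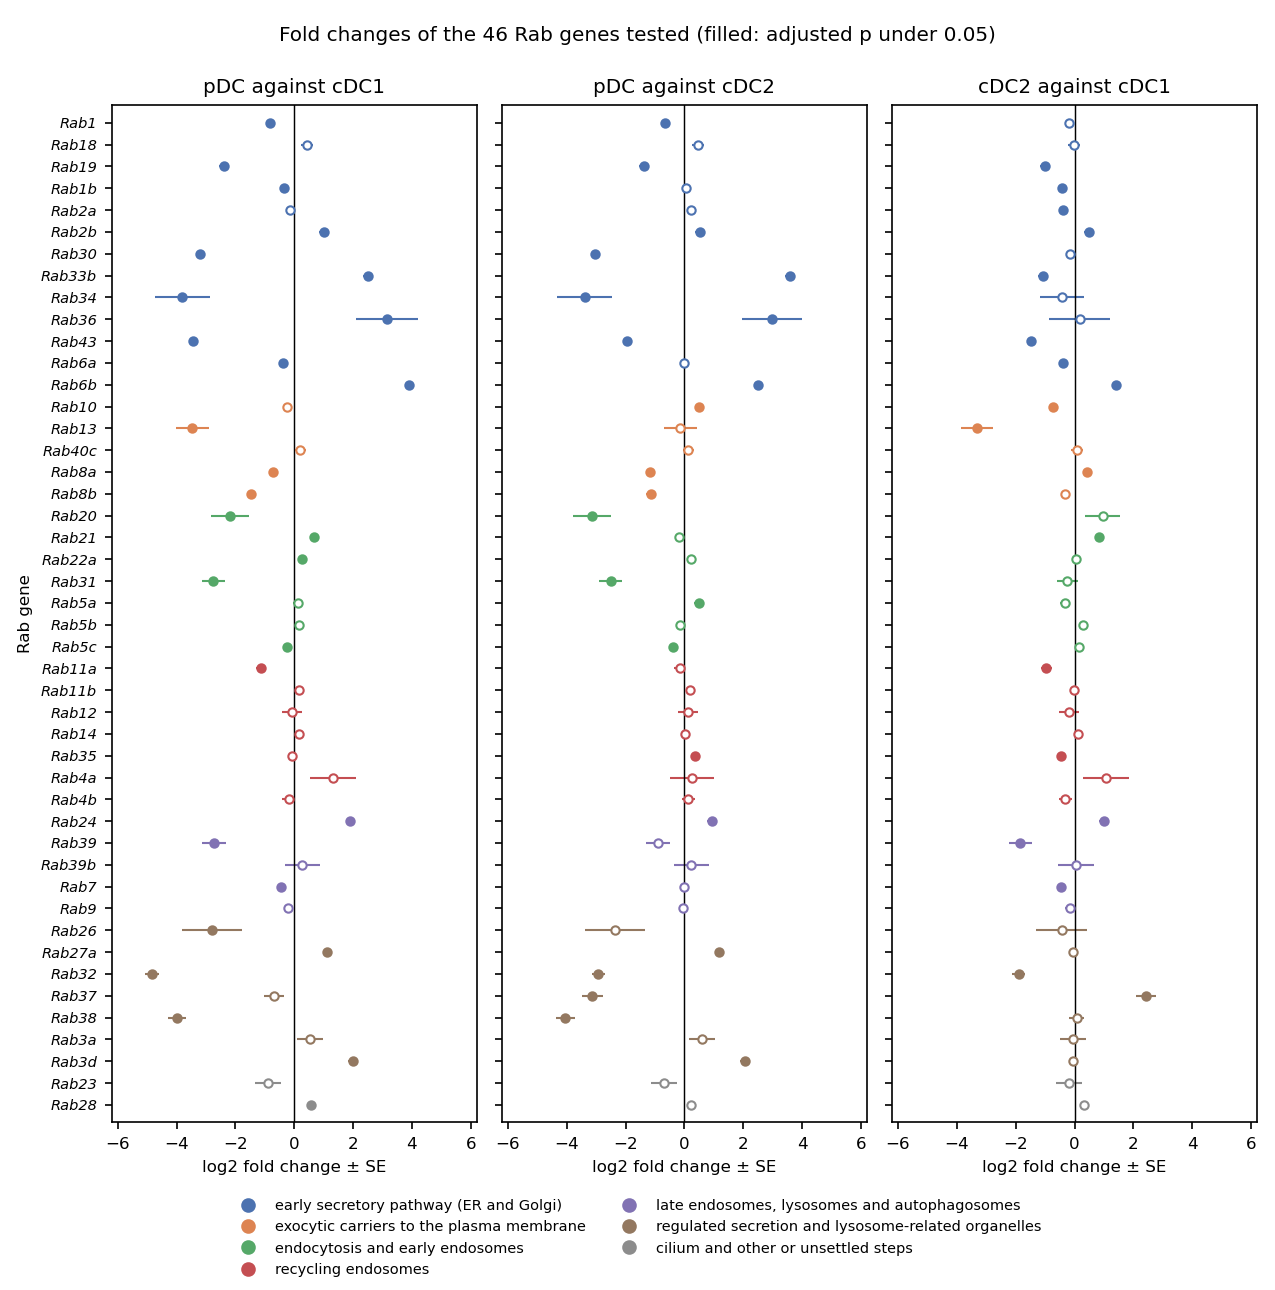
Log2 fold changes (x axis, error bars are the SE from edgeR) of the 46 Rab genes tested, in 1 panel per comparison, coloured by trafficking step. Filled circles passed an adjusted p under 0.05. Rab32 had the lowest value against cDC1 (-4.83) and Rab6b the highest (3.91), while most recycling endosome genes lay near 0 in all 3 panels.

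By step, called differences were counted with no test between steps, and 56.0% of all genes tested differed among the subsets. Of the early secretory Rab genes, 12 of 13 tested differed among the subsets, as did 4 of 5 of the exocytic carriers, 5 of 7 of regulated secretion, 4 of 7 of the early endosomes, 3 of 5 of the late endosomes, 2 of 7 of the recycling endosomes and 1 of 2 of the last step. Same-numbered libraries carry the same date code, and with that sort as a block the early endosomal count was 7 of 7 and the early secretory count 13 of 13. The share of all genes that differed with the block is not given here, so these counts are not read as traits of the steps. In 3 genes all 3 comparisons were called in the order cDC1 over cDC2 over pDC, namely Rab43, Rab32 and Rab19, where 3.05% of all genes tested showed that order. With the sort as a block, Rab39 and Rab8b joined them, for 5 genes, and 4.90% of all genes showed it. The reverse order, pDC over cDC2 over cDC1, was called for Rab6b, Rab24 and Rab2b, where 2.83% of all genes did so. With 3 genes in each order, nothing is read from these shares.

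**Figure D3:**
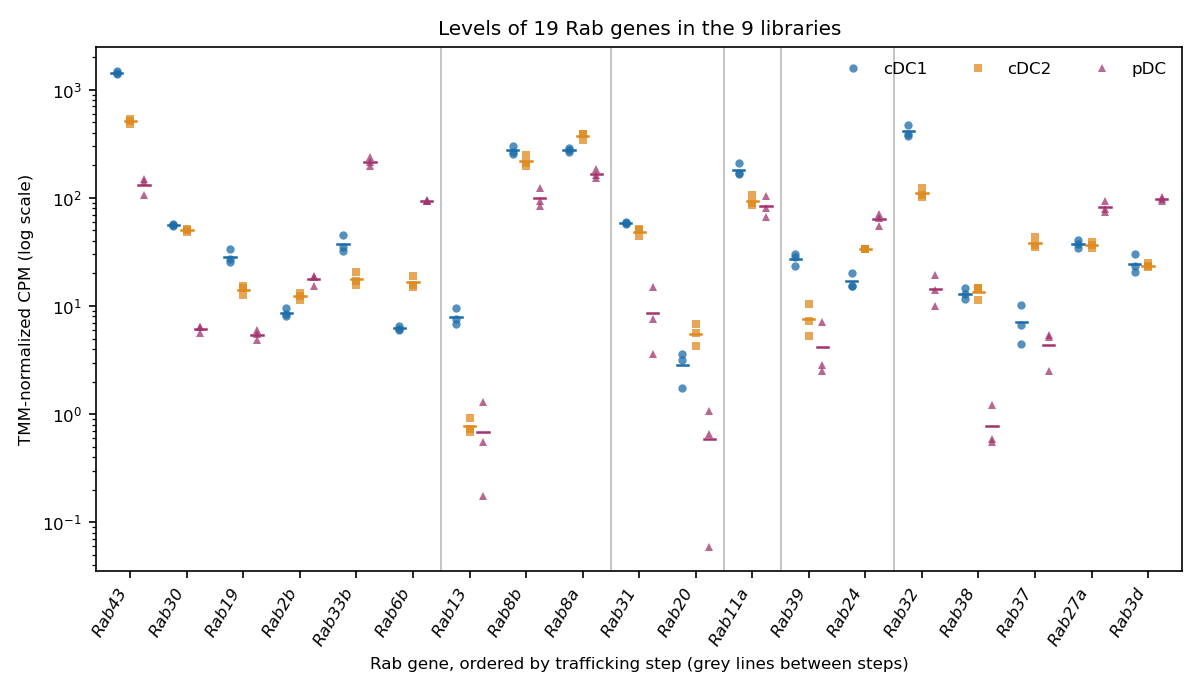
TMM-normalized CPM on a log scale of the 19 Rab genes with a called change of at least 1 on the log2 scale and at least 100 counts on average in their higher subset. Each point is 1 library (circles cDC1, squares cDC2, triangles pDC) and each bar the mean of 3, and grey lines separate the trafficking steps. Rab43 and Rab32 step down from cDC1 to cDC2 to pDC, and Rab33b, Rab6b and Rab3d are highest in pDC.

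The early secretory pathway held the gene with the highest level of the family. Rab43 (ENSMUSG00000030055, chr6:87788853-87812164, minus strand) encodes a Golgi Rab that is known for its part in the cross-presentation of cell-associated antigen by CD8+ DC. It was at 1411, 1399 and 1491 CPM in cDC1, 513, 485 and 535 CPM in cDC2 and 140.3, 106 and 148 CPM in pDC. The 3 subsets did not overlap, and each step down was larger than the spread of the libraries. The level in pDC was 10.9-fold lower than in cDC1 (log2 fold change -3.45, SE 0.13, adjusted p = 6.89e-08, edgeR) and 3.89-fold lower than in cDC2 (log2 fold change -1.96, SE 0.13, adjusted p = 1.30e-06). Between the conventional subsets, cDC2 were 2.81-fold lower (log2 fold change -1.49, SE 0.12, adjusted p = 2.65e-05). Of its exon bases, 75.4% lie in Gm45140, a gene model on the same strand that is not listed in the count table, so reads of the one cannot be told from reads of the other.

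A further pair of Golgi genes was also lowest in pDC. Rab30 (ENSMUSG00000030643, chr7:92741603-92844535, plus strand), whose protein is needed for the shape of the Golgi, was at 57.5, 54.7 and 56.1 CPM in cDC1, 51.96, 47.8 and 50.5 CPM in cDC2 and 6.38, 5.62 and 6.36 CPM in pDC. Between cDC2 and cDC1 the log2 difference was -0.16 (SE 0.10, adjusted p = 0.302, edgeR), and pDC were 9.15-fold below cDC1 (log2 fold change -3.19, SE 0.11, adjusted p = 4.94e-08) and 8.17-fold below cDC2 (adjusted p = 8.84e-08). Rab19 (ENSMUSG00000029923, chr6:39381175-39390380, plus strand), another Golgi Rab, was at 25.4, 27.1 and 33.3 CPM in cDC1, 14.6, 15.2 and 12.6 CPM in cDC2 and 5.54, 4.86 and 5.95 CPM in pDC. No library of a subset overlapped another subset, with pDC 5.24-fold below cDC1 (log2 fold change -2.39, SE 0.17, adjusted p = 2.55e-06) and cDC2 2.02-fold below cDC1 (log2 fold change -1.01, SE 0.16, adjusted p = 0.00143).

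In the other direction, 2 early secretory genes were far higher in pDC. Rab33b (ENSMUSG00000027739, chr3:51483920-51496232, plus strand) encodes a Golgi Rab that also binds the autophagy protein Atg16l1. It was at 32.2, 35.1 and 45.8 CPM in cDC1, 15.6, 17.04 and 20.7 CPM in cDC2 and 195, 215 and 236 CPM in pDC, and every pDC library lay above every library of the other subsets. The level in pDC was 5.73-fold that in cDC1 (log2 fold change 2.52, SE 0.17, adjusted p = 1.49e-06, edgeR) and 12.1-fold that in cDC2 (log2 fold change 3.60, SE 0.17, adjusted p = 2.35e-07), and cDC2 were 2.12-fold below cDC1 (log2 fold change -1.08, SE 0.16, adjusted p = 0.000922). Rab6b (ENSMUSG00000032549, chr9:103111787-103185276, plus strand) encodes the form of Rab6, a Rab of retrograde traffic at the Golgi, that is best known from neurons. It was at 6.48, 6.04 and 6.09 CPM in cDC1, 15.1, 15.6 and 18.9 CPM in cDC2 and 92.5, 95.5 and 92.9 CPM in pDC. The rise ran from cDC1 over cDC2 to pDC without overlap, and pDC stood 15.1-fold above cDC1 (log2 fold change 3.91, SE 0.13, adjusted p = 3.65e-08) and 5.67-fold above cDC2 (log2 fold change 2.50, SE 0.12, adjusted p = 2.22e-07). Its widely expressed paralog Rab6a was lower in pDC than in cDC1 (log2 fold change -0.40, SE 0.12, adjusted p = 0.0236) and did not pass the test against cDC2 (log2 fold change 0.00, SE 0.12).

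Smaller differences were seen in the general ER and Golgi Rab genes. Rab2b (ENSMUSG00000022159, chr14:52261759-52279545, minus strand) was at 9.504, 8.13 and 8.46 CPM in cDC1, 12.4, 13.1 and 11.3 CPM in cDC2 and 18.6, 15.3 and 18.8 CPM in pDC and 2.02-fold higher in pDC than in cDC1 (log2 fold change 1.01, SE 0.16, adjusted p = 0.000507). Its rise from cDC1 to cDC2 (log2 fold change 0.50, adjusted p = 0.0473) did not pass without any 1 of 8 of the libraries, all but pDC replicate 3, and that from cDC2 to pDC (adjusted p = 0.0214) did not pass without cDC2 replicate 1, cDC2 replicate 3 or pDC replicate 1. Of its exon bases 64.0% lie antisense to Tox4, which had 1683 to 4774 counts, and the strand setting of the counting is not given in the sources used here. Rab1, which carries traffic from the ER to the Golgi, was at 163 ± 26.3, 144 ± 24.1 and 92.4 ± 7.16 CPM (SD, n = 3) in cDC1, cDC2 and pDC, respectively, lower in pDC than in either (adjusted p = 0.00148 and 0.00631, edgeR). Its paralog Rab1b was highest in cDC1, at 227 ± 27.8 CPM, with 170.1 ± 6.44 in cDC2 and 176 ± 6.53 in pDC (adjusted p = 0.0171 for pDC and 0.0167 for cDC2, each against cDC1). Rab2a was lower in cDC2 than in cDC1 (log2 fold change -0.38, adjusted p = 0.00822) and, with the sort as a block, than in pDC (adjusted p = 0.0138). Rab18, which acts at the ER and on lipid droplets, was called with the block only, as higher in pDC than in cDC1 and cDC2 (adjusted p = 0.0229 and 0.0222). It was at 70.13, 70.74 and 88.81 CPM in cDC1, 72, 76.98 and 76.72 CPM in cDC2 and 89.06, 81.55 and 139.8 CPM in pDC. The libraries of pDC and cDC1 overlapped, and pDC replicate 3 stood far above the other pDC libraries.

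At low counts, Rab36 and Rab34 also differed. Rab36 averaged 2.99 ± 0.957 CPM in pDC (SD, n = 3), where cDC1 averaged 0.312 ± 0.272 and cDC2 0.3596 ± 0.336 (adjusted p = 0.0302 and 0.03705, edgeR). Rab34 was at or under the floor of 3 counts a library in pDC, and at least 5.91-fold higher in cDC1 and 4.49-fold higher in cDC2 (adjusted p = 0.00722 and 0.0141). Without cDC2 replicate 3, which held 23 counts, the bound against cDC2 was 2.36-fold. Both lie below the 100 counts asked for elsewhere and are named because they passed the test.

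The promoters of 4 Rab genes are shown as examples, 2 that were highest in cDC1 (Rab43 and Rab39), 1 that was highest in pDC (Rab27a) and 1 that was low in pDC (Rab31). They are the 250 bases before the start of the RefSeq transcript on GRCm38.p6, 5′ to 3′, with capitals for the motif CANCTG, an E-box that bHLH factors such as the pDC factor Tcf4 can bind.
Rab43, chr6:87811780-87812029, minus strand: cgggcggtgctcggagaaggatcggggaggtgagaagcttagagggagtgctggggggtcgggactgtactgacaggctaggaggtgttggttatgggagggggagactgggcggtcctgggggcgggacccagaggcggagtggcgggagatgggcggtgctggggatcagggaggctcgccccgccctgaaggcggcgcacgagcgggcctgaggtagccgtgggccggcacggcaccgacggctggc
Rab39, chr9:53706233-53706482, minus strand: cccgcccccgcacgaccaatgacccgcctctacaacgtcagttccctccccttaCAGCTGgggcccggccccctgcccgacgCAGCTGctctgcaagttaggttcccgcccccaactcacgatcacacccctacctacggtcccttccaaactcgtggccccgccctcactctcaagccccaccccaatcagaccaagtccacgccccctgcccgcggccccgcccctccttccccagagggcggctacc
Rab27a, chr9:73044560-73044809, plus strand: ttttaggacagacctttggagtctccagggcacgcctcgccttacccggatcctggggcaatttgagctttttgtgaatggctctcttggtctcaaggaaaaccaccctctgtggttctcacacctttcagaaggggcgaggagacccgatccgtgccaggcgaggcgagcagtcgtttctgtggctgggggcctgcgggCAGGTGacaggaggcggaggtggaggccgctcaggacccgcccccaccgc
Rab31, chr17:65772753-65773002, minus strand: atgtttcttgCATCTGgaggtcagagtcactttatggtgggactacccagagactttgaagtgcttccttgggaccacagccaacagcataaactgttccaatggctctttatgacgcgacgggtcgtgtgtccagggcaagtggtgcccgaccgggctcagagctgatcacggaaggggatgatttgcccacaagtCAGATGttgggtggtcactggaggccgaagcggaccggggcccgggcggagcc
The first bases of the Rab43 window lie in an exon of another transcript, which starts farther upstream. RefSeq gave such a window for 16 of the 19 genes plotted by library, all but Rab30, Rab37 and Rab38. Searched on both strands, CANCTG was found in 7 of the 16 windows (43.8%) and in 44.8% of the windows of 32851 promoters. The motif TGANTCA, which AP-1 factors bind, was in none of the 16 and in 6.75% of all, and GGAA followed by GAAA after 2 bases, a site of PU.1 with IRF4 or IRF8, was in none and in 2.30%. The windows of Rab43, Rab39, Rab27a and Rab31 held 71.2%, 68.8%, 62% and 57.6% G or C, where the median of all promoters was 52.4%. A match in these letters is not a bound site.

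Among exocytic carriers, which bring cargo from the Golgi and endosomes to the cell surface, no Rab gene was called higher in pDC than in cDC1. That was 0 of 5 tested, beside 24.3% of all genes tested, and nothing is read from so few. Rab8a (ENSMUSG00000003037, chr8:72161200-72183904, plus strand) was at 274, 263 and 288 CPM in cDC1, 386, 340.4 and 392 CPM in cDC2 and 183, 161 and 153 CPM in pDC. It was highest in cDC2, with pDC 2.25-fold below cDC2 (log2 fold change -1.17, SE 0.10, adjusted p = 1.14e-05, edgeR) and 1.66-fold below cDC1 (log2 fold change -0.73, SE 0.10, adjusted p = 0.0002403), and cDC2 1.35-fold above cDC1 (log2 fold change 0.44, SE 0.10, adjusted p = 0.0112). This last difference did not pass without cDC1 replicate 2 or cDC2 replicate 3. Rab8b (ENSMUSG00000036943, chr9:66843664-66919687, minus strand), its close paralog, was at 256, 264 and 303 CPM in cDC1, 198, 209.9 and 251 CPM in cDC2 and 93.2, 83.6 and 122 CPM in pDC. The pDC were again lowest without overlap, 2.75-fold below cDC1 (log2 fold change -1.46, SE 0.16, adjusted p = 4.17e-05) and 2.201-fold below cDC2 (log2 fold change -1.14, SE 0.16, adjusted p = 0.0002403). In contrast to Rab8a it was not higher in cDC2, where its log2 difference from cDC1 was -0.32 (SE 0.16, adjusted p = 0.175). The difference passed with the sort as a block (adjusted p = 0.0103).

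Rab13 (ENSMUSG00000027935, chr3:90213695-90226385, plus strand), a Rab of cell junctions and surface transport, was highest in cDC1. It was at 7.54, 6.75 and 9.48 CPM in cDC1, 0.924, 0.735 and 0.691 CPM in cDC2 and 1.301, 0.557 and 0.177 CPM in pDC. All cDC1 libraries were above all others, 11-fold against pDC (log2 fold change -3.46, SE 0.56, adjusted p = 0.000592, edgeR) and 9.99-fold against cDC2 (log2 fold change -3.32, SE 0.55, adjusted p = 0.00173), and the libraries of pDC and cDC2 overlapped. Without pDC replicate 1, the highest pDC library, the fall from cDC1 was 20.9-fold. The other pDC libraries held 11 and 3 counts, the last at the floor of 3, so this fold is imprecise. Rab10, which moves receptors and transporters to the surface, was at 289 ± 15.2, 174 ± 7.91 and 242 ± 42.2 CPM (SD, n = 3) in cDC1, cDC2 and pDC, respectively. It was lower in cDC2 than in cDC1 (log2 fold change -0.74, SE 0.13, adjusted p = 0.00216) and than in pDC (adjusted p = 0.0108), and with the block also lower in pDC than in cDC1 (adjusted p = 0.0232). Rab40c, the remaining gene tested in this step, was not called and averaged 13.3 to 15.3 CPM.

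Early endosomes showed small changes in their general Rab genes and larger ones in Rab31 and Rab20. The 3 Rab5 genes, whose proteins define the early endosome, changed by at most 0.48 on the log2 scale. Rab5c, the most abundant of them, was at 249 ± 22.1, 274 ± 14.2 and 208 ± 5.399 CPM (SD, n = 3) in cDC1, cDC2 and pDC, respectively, lower in pDC than in cDC1 (log2 fold change -0.26, adjusted p = 0.0463, edgeR) and than in cDC2 (log2 fold change -0.40, adjusted p = 0.00655). Rab5a was higher in pDC than in cDC2 (log2 fold change 0.48, adjusted p = 0.0402), and, with the block, lower in cDC2 than in cDC1 (adjusted p = 0.0193). Rab5b was called with the block only, as higher in cDC2 than in cDC1 (adjusted p = 0.0306). Rab21, which takes up integrins, was the lowest in cDC1, at 89.7 ± 6.03 CPM, with 161 ± 6.33 in cDC2 and 142 ± 9.36 in pDC (adjusted p = 0.000187 and 0.000325 against cDC1), and with the block lower in pDC than in cDC2 (adjusted p = 0.0436). Rab22a, which sorts cargo out of early endosomes, was slightly higher in pDC than in cDC1 (log2 fold change 0.27, adjusted p = 0.0442) and, with the block, than in cDC2 (adjusted p = 0.0398).

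Rab31 (ENSMUSG00000056515, chr17:65651729-65772752, minus strand), which moves cargo between the trans-Golgi network and endosomes, was at 56.7, 59.3 and 57.9 CPM in cDC1, 51.3, 44.2 and 50.4 CPM in cDC2 and 7.53, 3.596 and 14.8 CPM in pDC. The conventional subsets were close to each other (log2 difference -0.25, SE 0.36) and pDC were 6.75-fold below cDC1 (log2 fold change -2.75, SE 0.39, adjusted p = 0.000249, edgeR) and 5.67-fold below cDC2 (log2 fold change -2.50, SE 0.39, adjusted p = 0.000484). The 3 pDC libraries differed among themselves, with replicate 2 lowest and replicate 3 highest. The summed macrophage markers had the same order, at 119, 24.9 and 143 CPM in replicates 1, 2 and 3. So did the NK list (19.1, 10.6 and 43 CPM) and the erythroid, B cell, monocyte and cDC2 lists, so the order is not particular to macrophage markers. The T cell, plasma cell, neutrophil, platelet and basophil or mast cell lists had other orders. The part of any of these cells in the result was not tested. Without pDC replicate 3 the falls were 10.2-fold against cDC1 and 8.55-fold against cDC2. Of the 12 plotted genes that were lower in pDC than in cDC1, 9 had their lowest pDC value in replicate 2 and 7 their highest in replicate 3. Of the 6 plotted genes higher in pDC than in cDC1, 4 also had their highest pDC value in replicate 3. Their lowest was in replicates 1, 2 and 3 for 3, 2 and 1 of them. Such counts over all genes are not given here, so nothing is read from these. Rab20 (ENSMUSG00000031504, chr8:11453518-11478710, minus strand), a Rab of maturing phagosomes, was at 3.605, 3.17 and 1.76 CPM in cDC1, 6.75, 5.67 and 4.25 CPM in cDC2 and 1.06, 0.658 and 0.0589 CPM in pDC. The pDC libraries were below those of both other subsets, 4.56-fold against cDC1 (log2 fold change -2.19, SE 0.64, adjusted p = 0.01798) and 8.85-fold against cDC2 (log2 fold change -3.15, SE 0.65, adjusted p = 0.00309), and replicate 3 was lowest in each subset. Without pDC replicate 1 the falls were 7.65-fold and 14.8-fold. The other pDC libraries held 13 and 1 counts, the last under the floor of 3, so these folds are imprecise. The fall against cDC1 did not pass without cDC1 replicate 1.

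Of the recycling endosome genes, 2 of 7 tested were called in any comparison in the fit without a block, Rab11a and Rab35. Rab11a (ENSMUSG00000004771, chr9:64715299-64737758, minus strand), which returns cargo to the surface and is known to supply MHC class I to phagosomes, was at 170.2, 166 and 210.3 CPM in cDC1, 89.7, 85.6 and 107 CPM in cDC2 and 80.9, 66.5 and 104 CPM in pDC. All cDC1 libraries lay above those of cDC2 and pDC, which overlapped each other. Compared with cDC1 the level was 2.17-fold lower in pDC (log2 fold change -1.12, SE 0.18, adjusted p = 0.000504, edgeR) and 1.94-fold lower in cDC2 (log2 fold change -0.95, SE 0.17, adjusted p = 0.00302). Rab35, which acts in fast recycling, was lowest in cDC2, at 78.3 ± 3.39 CPM (SD, n = 3), with 107 ± 1.71 in cDC1 and 101 ± 6.52 in pDC (adjusted p = 0.00545 for cDC1 and 0.00841 for pDC). Rab14, Rab11b, Rab12, Rab4a and Rab4b did not pass the test, with log2 fold changes of pDC against cDC1 of 0.15, 0.17, -0.07, 1.31 and -0.18. With the block, Rab11b passed against cDC2 (log2 fold change 0.19, adjusted p = 0.0414). The count for Rab4b may be incomplete, since 65.0% of its exon bases are shared with Gm21983, which had 0 counts in every library.

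Late endosomes and lysosomes were led by Rab7, the Rab of late endosome and lysosome fusion. It was at 412 ± 9.997, 301 ± 4.98 and 299.7 ± 21.1 CPM (SD, n = 3) in cDC1, cDC2 and pDC, respectively, so that cDC1 were higher than pDC (log2 fold change -0.46, SE 0.08, adjusted p = 0.00148, edgeR) and than cDC2 (log2 fold change -0.45, SE 0.08, adjusted p = 0.00345). Rab9, which returns receptors from late endosomes to the Golgi, was not called in any comparison and its means lay between 21.3 and 24.6 CPM. Rab24 (ENSMUSG00000034789, chr13:55319743-55321946, minus strand), a Rab found on autophagosomes, was at 15.3, 15.4 and 20.2 CPM in cDC1, 33.7, 33.5 and 33.4 CPM in cDC2 and 54.5, 65.4 and 70.8 CPM in pDC. It rose without overlap from cDC1 over cDC2 to pDC, 3.76-fold from cDC1 to pDC (log2 fold change 1.91, SE 0.15, adjusted p = 4.27e-06) and 1.98-fold from cDC1 to cDC2 (log2 fold change 0.99, SE 0.15, adjusted p = 0.0008696). Of its exon bases 62.4% lie antisense to Prelid1, which had 2427 to 4720 counts.

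Rab39 (ENSMUSG00000055069, chr9:53684110-53706232, minus strand), a Rab of phagosomes and late endosomes, was at 23.2, 28.4 and 30.3 CPM in cDC1, 5.22, 7.21 and 10.5 CPM in cDC2 and 2.84, 2.48 and 7.12 CPM in pDC. Every cDC1 library lay above all others, 6.66-fold against pDC (log2 fold change -2.73, SE 0.41, adjusted p = 0.000394, edgeR) and 3.58-fold against cDC2 (log2 fold change -1.84, SE 0.39, adjusted p = 0.00714). Without pDC replicate 3, the fall from cDC1 to pDC was 10.2-fold. Between pDC and cDC2 the libraries overlapped through pDC replicate 3 (log2 fold change -0.89, adjusted p = 0.09697). All 3 same-numbered pairs were lower in pDC, and the difference passed with the sort as a block (adjusted p = 0.0127) and without pDC replicate 3 (log2 fold change -1.50, adjusted p = 0.00323). Its X-linked paralog Rab39b was below 1 CPM on average in each subset.

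Regulated secretion and lysosome-related organelles split in opposite directions. Rab32 (ENSMUSG00000019832, chr10:10545002-10558265, minus strand), which with Rab38 builds lysosome-related organelles such as melanosomes, had the largest fall of the family. It was at 376, 385 and 472 CPM in cDC1, 101, 106 and 122 CPM in cDC2 and 14.04, 10.03 and 19.4 CPM in pDC. The 3 subsets did not overlap, with pDC 28.4-fold below cDC1 (log2 fold change -4.83, SE 0.24, adjusted p = 2.60e-07, edgeR) and 7.58-fold below cDC2 (log2 fold change -2.92, SE 0.22, adjusted p = 4.07e-06), and cDC2 3.75-fold below cDC1 (log2 fold change -1.91, SE 0.21, adjusted p = 0.000141). Rab38 (ENSMUSG00000030559, chr7:88430273-88491572, plus strand) was at 12.8, 11.6 and 14.6 CPM in cDC1, 14.8, 11.3 and 14.7 CPM in cDC2 and 1.21, 0.557 and 0.589 CPM in pDC. Here cDC1 and cDC2 overlapped (log2 difference 0.07, SE 0.26) and pDC were 15.7-fold and 16.5-fold below them (log2 fold change -3.98, SE 0.31, adjusted p = 4.55e-06, and log2 fold change -4.04, SE 0.31, adjusted p = 4.54e-06). Both genes of the pair were thus low in pDC, whereas the fall from cDC1 to cDC2 was called for Rab32 and not for Rab38. That difference between the genes was not tested.

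Rab3d and Rab27a, which act in the release of granules and secretory lysosomes, rose in pDC. Rab3d (ENSMUSG00000019066, chr9:21907491-21918192, minus strand), a Rab of granule exocytosis, was at 23.4, 20.4 and 30.1 CPM in cDC1, 24.9, 22.7 and 23.3 CPM in cDC2 and 102, 98.1 and 92.7 CPM in pDC. It was 3.97-fold higher in pDC than in cDC1 (log2 fold change 1.99, SE 0.15, adjusted p = 3.07e-06, edgeR) and 4.12-fold higher than in cDC2 (log2 fold change 2.04, SE 0.15, adjusted p = 2.76e-06), and cDC1 and cDC2 overlapped. Rab27a (ENSMUSG00000032202, chr9:73044854-73097629, plus strand), which docks secretory lysosomes and exosomes at the plasma membrane, was at 37.3, 34.01 and 40.8 CPM in cDC1, 36.4, 34.2 and 38.7 CPM in cDC2 and 77.99, 73.9 and 92.5 CPM in pDC. Again cDC1 and cDC2 overlapped, and pDC were 2.18-fold above cDC1 (log2 fold change 1.12, SE 0.12, adjusted p = 4.76e-05) and 2.24-fold above cDC2 (log2 fold change 1.16, SE 0.12, adjusted p = 4.27e-05). Rab3a, best known from synapses, was at 2.75, 2.67 and 3.995 CPM on average in cDC1, cDC2 and pDC and was not called.

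Rab37 (ENSMUSG00000020732, chr11:115091431-115162236, plus strand), a Rab of secretory granules in mast cells, was highest in cDC2. It was at 6.7, 4.42 and 10.2 CPM in cDC1, 35.1, 36.5 and 42.98 CPM in cDC2 and 5.38, 2.48 and 5.12 CPM in pDC. All cDC2 libraries lay above the others, 5.42-fold against cDC1 (log2 fold change 2.44, SE 0.34, adjusted p = 0.000634, edgeR) and 8.77-fold against pDC (log2 fold change -3.13, SE 0.35, adjusted p = 6.29e-05). Libraries of cDC1 and pDC overlapped (log2 fold change -0.69, adjusted p = 0.124), and that difference passed with the sort as a block (adjusted p = 0.0413). The basophil or mast cell list reached at most 2.55 CPM in cDC2. Rab26 was under 1 CPM on average in each subset, and its lower level in pDC than in cDC1 (adjusted p = 0.0466) did not pass with the block (adjusted p = 0.07099).

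In the last step, Rab28, a ciliary Rab, was higher in pDC than in cDC1 (log2 fold change 0.57, SE 0.12, adjusted p = 0.00321, edgeR), at 32.5 ± 0.459 CPM (SD, n = 3) against 21.9 ± 2.26. Rab23, which acts in Hedgehog signalling, was at 1.67 to 3.15 CPM on average and was not called. The 11 Rab genes without enough counts for the test were Rab3b, Rab3c, Rab9b, Rab15, Rab17, Rab25, Rab27b, Rab33a, Rab40b, Rab42 and Rab44. Rab3c and Rab9b had 0 counts in all 9 libraries. Of the others, Rab44, which is known from mast cells and granulocytes, had the most, with 42 counts (2.47 CPM) in pDC replicate 3, and Rab27b, the paralog of Rab27a, had up to 14 counts (0.744 CPM), in cDC2 replicate 3. That same cDC2 library had the highest sums of the NK (89.1 CPM), macrophage (588), neutrophil (49.6) and basophil or mast cell (2.55) lists. Over pDC replicates 1, 2 and 3, where Rab44 was at 0.393, 0.152 and 2.47 CPM, the neutrophil list was at 35.9, 4.2 and 34.1 CPM and the basophil or mast cell list at 2.54, 0.253 and 0 CPM. The NK list was at 19.1, 10.6 and 43 CPM there. Like Rab44, the NK, macrophage, erythroid, B cell and monocyte lists were lowest in pDC replicate 2 and highest in replicate 3. The T cell, plasma cell and platelet lists were not. The part of these cells in the counts of Rab27b and Rab44 was not tested.

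**Figure D4:**
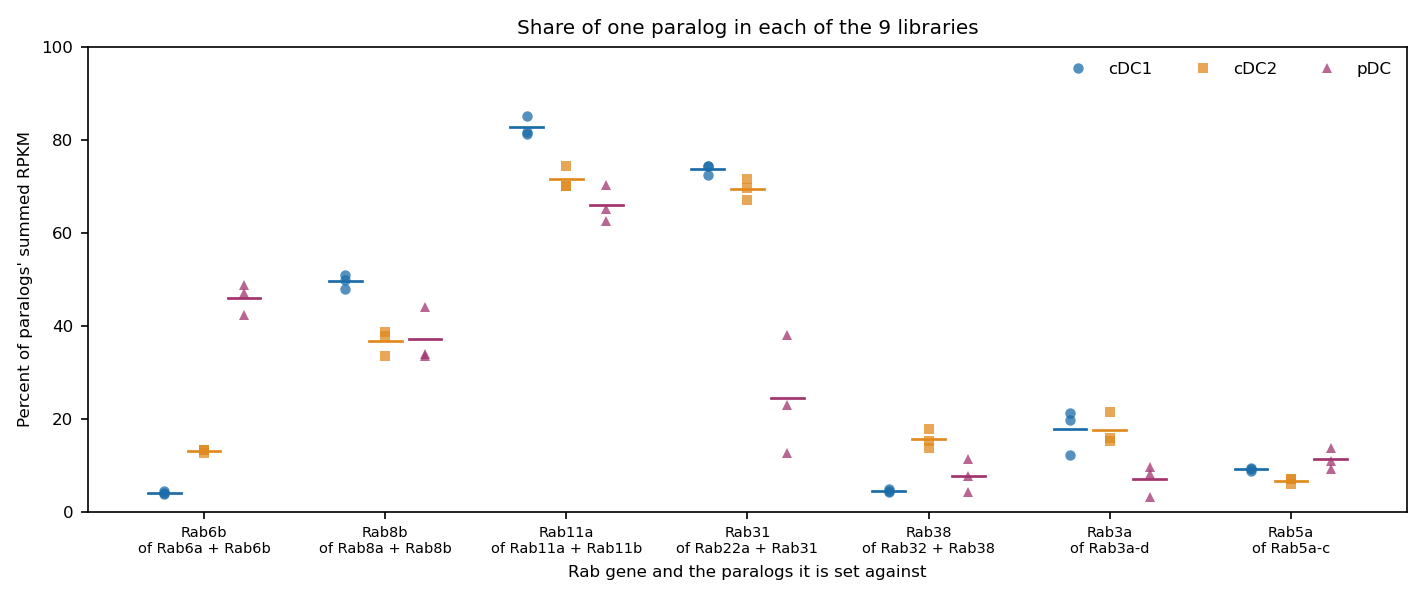
Percent of the summed RPKM of close paralogs that came from 1 of them, in each of the 9 libraries (circles cDC1, squares cDC2, triangles pDC, bars the means of 3). Rab6b goes from 4.12% of the Rab6 pair in cDC1 to 46.1% in pDC, and Rab31 from 73.8% of its pair with Rab22a to 24.5%.

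Set against each other per kilobase, close paralogs differed in their shares between subsets. Rab6b made up 4.12% ± 0.345 of the summed RPKM of Rab6a and Rab6b for cDC1 (SD, n = 3), 13% ± 0.415 for cDC2 and 46.1% ± 3.35 for pDC, without overlap. Rab11a held 82.7% ± 2.10 of the Rab11 pair in cDC1, 71.5% ± 2.52 in cDC2 and 66.0% ± 3.95 in pDC, and cDC2 and pDC overlapped. Rab8b held 49.6% ± 1.49 of the Rab8 pair in cDC1, 36.7% ± 2.75 in cDC2 and 37.2% ± 6.00 in pDC. Against Rab22a, Rab31 held 73.8% ± 1.08, 69.4% ± 2.28 and 24.5% ± 12.8, and the wide spread in pDC follows the 3 pDC values of Rab31 above. Rab3d was the main Rab3 gene in every subset, at 82.1% ± 4.90, 82.4% ± 3.34 and 93.0% ± 3.34. Rab5c likewise led the Rab5 genes in every subset, at 77.6% ± 1.02, 78.5% ± 0.293 and 72.4% ± 1.38. These shares are descriptions and were not tested. Of the 57 genes, 40 share no run of 75 bases, the length of a read, with another gene, and 5 share over 5% of such runs.

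The proteins that act on Rab GTPases were taken as 137 genes, of which 124 were tested. Of these, 28 were higher and 32 lower in pDC than in cDC1, 35 higher and 35 lower in pDC than in cDC2, and 20 higher and 12 lower in cDC2 than in cDC1. As shares these were 22.6% and 25.8%, 28.2% and 28.2%, and 16.1% and 9.68%. Those of all genes were 24.3% and 24.4%, 22.5% and 23.3%, and 12.7% and 11.7%. For pDC against cDC2 both shares were thus above those of all genes, and no test of them was run. Of genes with a mean of at least 100 counts, 24.2% were higher and 25.2% lower in that comparison, which is closer to them. The regulators and effectors were not limited to such counts. With the sort as a block, the last comparison had 30 higher and 18 lower, and the shares of all genes with the block are not given here. Among 8 chaperone and prenylation genes, Gdi2, which extracts GDP-bound Rab from membranes, was lower in pDC, at 630.2 ± 92.99 CPM (SD, n = 3) below cDC1 at 1278 ± 38.2 and cDC2 at 1320.0 ± 75.2 (log2 fold change against cDC2 -1.07, SE 0.11, adjusted p = 3.72e-05, edgeR). Rabac1, a Golgi acceptor of prenylated Rab, went the other way, at 114.5 ± 11.5 CPM in pDC and 54.6 ± 5.06 in cDC1 (log2 fold change 1.07, adjusted p = 4.25e-05). Rabggta, a subunit of the enzyme that prenylates Rab, was lower in pDC than in cDC1 (log2 fold change -1.29, adjusted p = 0.00113).

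Of 36 exchange factors tested, 8 were higher (22.2%) and 12 lower (33.3%) in pDC than in cDC1, beside 24.3% and 24.4% of all genes. Rin2, an exchange factor of Rab5, was highest in cDC2, at 70.0 ± 18.3 CPM (SD, n = 3) against 10.7 ± 2.91 in cDC1 (log2 fold change 2.70, adjusted p = 8.32e-05, edgeR). The largest called fall from cDC1 to cDC2 in this list was that of Dennd2d (log2 fold change -2.22, adjusted p = 4.07e-05).

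GTPase-activating proteins (35 tested) were called in equal numbers, 9 higher and 9 lower in pDC than in cDC1 (25.7% each), near the same shares of all genes. Tbc1d4, which acts on Rab8a and Rab10, was at 18.4 ± 2.44, 308 ± 30.1 and 591 ± 51.8 CPM (SD, n = 3) in pDC, cDC1 and cDC2, respectively (log2 fold change of pDC against cDC2 -5.00, adjusted p = 5.08e-08, edgeR). Tbc1d9 was at 23.5 ± 4.08 CPM in pDC and 587 ± 114 in cDC1 (log2 fold change -4.64, adjusted p = 1.37e-07). Rabgap1l was highest in pDC, at 315.5 ± 31.0 CPM against 28.7 ± 1.53 in cDC2 (log2 fold change 3.46, adjusted p = 9.61e-08), as was Evi5 (log2 fold change of pDC against cDC1 3.09, adjusted p = 3.67e-06). Tbc1d16 was higher in cDC2 than in cDC1 (log2 fold change 2.72, adjusted p = 9.33e-06).

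Among 45 effectors tested, 10 were higher (22.2%) and 8 lower (17.8%) in pDC than in cDC1, beside 24.3% and 24.4% of all genes. Rilpl1, a partner of phosphorylated Rab8 and Rab10, was at 60.2 ± 6.35 CPM (SD, n = 3) in pDC and 0.380 ± 0.216 in cDC1 (log2 fold change 7.17, adjusted p = 1.60e-06, edgeR). Sytl1, an effector of Rab27, was at 16.9 ± 2.04 CPM in pDC and 0.344 ± 0.310 in cDC2 (log2 fold change 5.73, adjusted p = 4.05e-05). Lrrk2, the kinase that phosphorylates Rab8, Rab10 and others, was low in pDC, at 12.7 ± 5.13 CPM, below cDC1 at 232.5 ± 72.9 and cDC2 at 264 ± 66.3 (log2 fold change against cDC2 -4.36, adjusted p = 7.06e-06). Rab11fip4, an effector of Rab11, was at 6.21 ± 3.09 CPM in pDC and 123.1 ± 19.9 in cDC1 (log2 fold change -4.32, adjusted p = 5.23e-06). Between cDC2 and cDC1 the largest called changes were those of Exoc6, a subunit of the exocyst (log2 fold change 0.48, adjusted p = 0.00788), and of Micall2, an effector of Rab8 and Rab13 (log2 fold change -2.39, adjusted p = 0.00193).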

How the data were processed

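The authors deposited 1 table of raw counts of reads per gene for the 9 libraries, made from stranded libraries of polyadenylated RNA read from one end over 75 bases. The submitters' processing notes name STAR, SAMtools, featureCounts and MultiQC and the build mm10, without versions or roles. The annotation, the strand setting and the handling of reads with several matches are not given in the sources used here, so counts of overlapping or near-identical genes are less certain. The paper names Degust for its analysis. All columns of per-sample values were used, and every row named a gene.

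From the counts, TMM factors, CPM and the quasi-likelihood test were computed with edgeR 4.0.16 in R 4.3.3. The function filterByExpr (minimum count 10) retained 13819 of 39179 genes. All 9 libraries entered 1 fit with the subset as the only term, and 3 contrasts and an F test over both subset coefficients were taken from it. Exon lengths, positions and overlaps were taken from GENCODE M21 (GRCm38), which has a model for 57 of 57 Rab genes, and promoters from RefSeq. Within each subset the replicates differed beyond counting error (chi-square per degree of freedom 9.93 to 64.4), so each counted as 1 sample. In each subset replicate 3 was the shallowest, where low counts are the least precise.

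Groups and replicate numbers came from the sample titles. Same-numbered libraries carry the same date code in the labels' descriptions, and their deviations from the group means correlated in all 9 pairs (mean r 0.403, lowest 0.266), so the numbers were taken to pair the samples. Values with the replicate number as a block are printed where they change a call.

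Rab genes were named with full values where a change was called and its log2 fold change was at least 1 in size and the higher subset had a mean of at least 100 counts. For the regulators and effectors, the largest called rise and fall of each list and comparison were named by the same minimum of counts. Some of the results that this rule names are not reported here. Rab36, Rab34, Rab26 and other Rab genes outside the rule were named after their values were seen. The members, steps and lists were chosen with earlier results of these data known. The fit was tested on simulated data. Alternatives were the replicate block, DESeq2 1.42.0, limma-voom (limma 3.58.1), library size only, upper quartile, RLE factors, no filter, 10 counts in every library, fits of 6 libraries, a fold change minimum, the longest transcript as length, and each library left out. Leaving out the third sort was added after the data were seen. Protein sequences were not used here. Plots were made in matplotlib 3.10.9 under Python 3.11.15.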

Additional observations from a re-analysis of the deposited data

How the results depend on the processing

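With the sort (replicate number) as a block, 11 Rab genes were higher and 20 lower in pDC than in cDC1, 14 and 15 in pDC against cDC2, and 7 and 15 in cDC2 against cDC1, and 35 differed among the subsets. The shares of all genes called in these comparisons with the block are not given here. A gain of calls among Rab genes can thus not be told from a gain among all genes. The pairing changed no other call of a Rab gene than those given beside its values. Over the alternatives, 46 named fold changes past the threshold gave 870 values, of which 852 stayed past it, 18 did not and 0 turned direction. Those 18 were of Rab2b (pDC against cDC2, and cDC2 against cDC1), Rab20 (log2 fold change -1.99 of pDC against cDC1 without cDC1 replicate 1, adjusted p = 0.0615 in edgeR) and Rab8a (cDC2 against cDC1 without cDC1 replicate 2 or cDC2 replicate 3, adjusted p = 0.0507 and 0.0542). Of 11 named fold changes not past the threshold, those of Rab37 (pDC against cDC1, without cDC1 replicate 2, adjusted p = 0.0453), Rab39, Rab8b (cDC2 against cDC1, without the third sort, adjusted p = 0.0128) and Rab20 (cDC2 against cDC1, without the third sort, adjusted p = 0.0311) passed it under some alternative.

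With each library left out, Rab genes higher numbered 8 to 11, 7 to 10 and 4 to 6 in the 3 comparisons (pDC against cDC1, pDC against cDC2, cDC2 against cDC1), those lower 16 to 18, 13 to 14 and 11 to 13, and those that differed 29 to 32. For regulators and effectors, called counts were 50 to 67, 58 to 73 and 20 to 40 (main 32), with 20 both without cDC1 replicate 2 and without cDC2 replicate 2, and 51 without the third sort. Where a library is left out, the rest of its subset is assumed to vary like the others. With a log2 fold change of 1 or more in size also required, 35, 34 and 9 regulators and effectors were left, and 5 Rab genes higher in pDC (against cDC2), 2 higher in cDC2 (against cDC1) and 6 lower in cDC2.

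Directions turned only for fold changes that had not passed the test. For Rab13 (pDC against cDC2) the value ran from -1.06 to 0.28 with each library left out (0.28 without pDC replicate 3) and was 0.23 without the third sort. Values of Rab38 (cDC2 against cDC1) ran from -0.0154 to 0.167 with each library left out. Those of Rab3d in the same comparison ran from -0.176 to 0.0793, and were 0.056 by library size only and 0.089 without the third sort, and that of Rab27a was 0.0732 by library size only. Library size alone moved the median of all genes by 0.11 in that comparison, and relative to it neither value turned. The cause of the other changes was not tested. Dividing by the longest transcript raised levels per kilobase, for Rab43 in cDC1 to 311.4 RPKM and for Rab28 in pDC to 11.3. Depth limits the 11 untested Rab genes, for which a difference was not detectable at this depth.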
